A study of Mus musculus with 8 samples.

Results

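The fibrillar, basement membrane and type VI collagens are described here by 9 genes: Col1a1, Col1a2, Col3a1, Col5a1 and Col5a2 (fibrillar), Col4a1 and Col4a2 (basement membrane), and Col6a1 and Col6a2 (type VI). They were picked by name, with earlier results of these data known, from the 19938 genes that the array platform names, by a rule that sets no limit on a measured value. Each was read by 1 probe set. Total RNA of 2 tissues, the cerebellum and the TA (tibialis anterior, a fast muscle of the shin), was read on Affymetrix Mouse Gene 1.0 ST arrays. The mice were 3 months old and either wild type (WT) or SCA17 knock-in (KI). SCA17 is an inherited ataxia in which the polyglutamine tract of the transcription factor TBP is expanded. Each of the 4 groups held 2 arrays: replicates 94 and 97 for KI and replicates 95 and 96 for WT, in muscle and in cerebellum. The study's own text speaks of 3 mice per genotype. The sources used here do not give the allele, its repeat length, the strain or the sex of the mice, and none says whether an array holds RNA of a single animal.

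Collagens are extracellular proteins in which chains wind into a trimeric helix. Type I and type III collagen make up most of the fibrils in the connective tissue around and between muscle fibres and in tendon, and type V collagen starts fibrils and limits their width. Col4a1 and Col4a2 form the common network of basement membranes, which coat muscle fibres and vessels, while type VI collagen makes beaded filaments that join the basement membrane to the surrounding matrix. In fibrotic muscle, fibroblasts and fibro-adipogenic progenitors lay down fibrillar collagen, which TGF-beta induces. The comparisons below ask whether the RNA of these chains differed between KI and WT muscle, as in fibrosis, and whether it did so in the cerebellum.

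None of the 9 chains was called different between KI and WT in muscle, and none of the 8 tested was called in the cerebellum. Levels are log2 values as deposited; a step of 1 is a doubling, and a level is comparable between arrays but not between probe sets. A gene was called when its adjusted p (limma, Benjamini-Hochberg over all genes tested) was under 0.05. In muscle 3.55% of 13933 genes tested were called (2.66% higher and 0.890% lower in KI), and in the cerebellum 0.205% of 13641. An unadjusted p under 0.05 was found in 20.3% of the genes tested in muscle and in 5.33% in the cerebellum. What set the arrays apart was a wide gap between the KI muscle arrays in both type I chains. Tendon markers ran alongside it, and so, by smaller median gaps, did most genes of some other matrix lists. Arrays of whole tissue cannot tell fewer cells of a type from less RNA per cell. The array 40th percentile, used as the floor for testing, lay between 4.96 and 5.05, so the members in muscle were read well above it.

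Promoter sequence of 7 of the 9 genes was matched by symbol in RefSeq (GRCm38.p6), as 8 windows. Stretches of 3 are shown. Col1a2 carries the main result, Col3a1 shares its fibrils without sharing its pattern, and Col4a2 starts beside Col4a1 on the opposite strand. Capitals mark the CCAAT box, CCAAT on either strand, or the TATAAA box, also on either strand.
Col1a2: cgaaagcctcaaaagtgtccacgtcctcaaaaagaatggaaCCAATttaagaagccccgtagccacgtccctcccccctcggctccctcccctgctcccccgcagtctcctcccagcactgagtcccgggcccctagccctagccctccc
Col3a1: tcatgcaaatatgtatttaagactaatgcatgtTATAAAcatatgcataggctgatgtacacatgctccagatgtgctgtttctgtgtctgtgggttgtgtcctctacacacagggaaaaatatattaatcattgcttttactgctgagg
Col4a2: ccCCAATttgttggcgctgccccctcccct
The Col1a2 stretch is chr6:4505468-4505617, the Col3a1 stretch chr1:45311388-45311537 and the Col4a2 stretch chr8:11312771-11312800, each on the plus strand in GRCm38.p6 and upstream of the gene's start. In the 250 bases before the start, CCAAT was found in 3 of the 8 windows (Col1a2, Col4a1 and Col4a2), against 33.8% of 32851 windows of all genes. TATAAA was found in 1 window, that of Col3a1, against 12.4%, and GGGCGG, on either strand, in 5 windows (Col1a2, Col4a2, Col5a1 and both of Col6a2), against 32.7%. The annotated starts of Col4a1 (minus strand) and Col4a2 (plus strand) lie 21 bases apart on chromosome 8, at 11312826 and 11312805. The annotated transcripts therefore overlap between the starts, and the Col4a2 stretch lies downstream of the Col4a1 start. These matches describe letters in a window and show no binding.

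Col1a1, the more abundant chain of type I collagen (chromosome 11), had muscle levels of 9.59 and 8.48 in KI replicates 94 and 97, and of 9.24 and 9.07 in WT replicates 95 and 96. The KI arrays lay on both sides of the WT arrays. The group means were 9.04 ± 0.79 in KI and 9.15 ± 0.12 in WT (SD, n = 2 each), a difference of -0.12 ± 0.28 (standard error; 95% interval -0.76 to 0.52; limma adjusted p = 0.863). Col1a2, the partner chain (chromosome 6), was at 9.56 and 8.38 in KI and at 8.97 and 9.02 in WT. Again the KI arrays enclosed both WT arrays, with means of 8.97 ± 0.84 and 9.0 ± 0.04 and a difference of -0.03 ± 0.29 (95% interval -0.69 to 0.64; limma adjusted p = 0.976). The intervals of both type I chains are therefore wide. They hold a fall of over 1.5-fold, and they also hold a rise, of up to 0.52 in Col1a1 and 0.64 in Col1a2.

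The sign of the type I result turned with the array left out. Without KI replicate 94, Col1a1 was 0.67 lower (-0.67; limma adjusted p = 0.0847) and Col1a2 0.62 lower (-0.62; adjusted p = 0.0807) in KI than in WT. Without KI replicate 97, Col1a1 was 0.44 higher (adjusted p = 0.21) and Col1a2 0.56 higher (adjusted p = 0.104). None of these 4 values was called. Leaving out either WT array left differences between -0.20 and 0.00.

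Col3a1, which shares fibrils with type I collagen (chromosome 1), was at 7.82 and 7.78 in KI muscle and at 7.54 and 7.79 in WT muscle. The KI arrays overlapped the WT arrays, and the difference was 0.13 ± 0.13 (95% interval -0.17 to 0.44; limma adjusted p = 0.626). Col5a1 (chromosome 2) was at 6.67 and 6.56 in KI and at 6.70 and 6.68 in WT. It was the only member of which both KI muscle arrays lay below both WT arrays, by a difference of -0.08 ± 0.11 (95% interval -0.32 to 0.17; adjusted p = 0.743). Across all genes tested in muscle, 50.2% had no overlap between the genotypes (30.3% higher and 19.9% lower in KI), which is above the members' 1 of 9. Col5a2 (chromosome 1) was at 6.38 and 6.24 in KI and at 6.21 and 6.37 in WT, overlapping, with a difference of 0.02 ± 0.11 (95% interval -0.23 to 0.28; adjusted p = 0.938).

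The basement membrane chains overlapped between the genotypes as well. Col4a1 (chromosome 8) had muscle levels of 7.30 and 7.23 in KI and of 7.12 and 7.39 in WT, and its difference was 0.01 ± 0.14 (95% interval -0.31 to 0.32; limma adjusted p = 0.983). Col4a2, which shares the promoter region of Col4a1, was at 6.92 and 6.62 in KI and at 6.67 and 6.80 in WT. Here KI replicate 94 was the highest and KI replicate 97 the lowest of the muscle arrays, and the difference was 0.03 ± 0.13 (95% interval -0.25 to 0.32; adjusted p = 0.918).

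Type VI collagen, whose human genes are mutated in congenital muscular dystrophies, showed the same overlap. Col6a1 (chromosome 10) was at 7.36 and 7.20 in KI muscle and at 7.17 and 7.31 in WT muscle, a difference of 0.04 ± 0.13 (95% interval -0.24 to 0.33; limma adjusted p = 0.892). Col6a2, its neighbour on chromosome 10, was at 7.71 and 7.59 in KI and at 7.56 and 7.61 in WT, a difference of 0.07 ± 0.11 (95% interval -0.17 to 0.30; adjusted p = 0.775).

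Over the 9 members in muscle, 6 differences were positive and 3 negative, with a median of 0.02; over all genes tested the median was 0.03 and 55.0% were positive. No member had an unadjusted p under 0.05, against 20.3% of all genes tested. Outside the type I chains the 95% intervals ran from -0.32 to 0.44. None of the 9 was called under any of the 15 alternative settings, although quantile normalising the arrays again turned the sign of the small differences of Col4a1 (-0.08), Col4a2 (-0.03), Col5a2 (-0.01), Col6a1 (-0.05) and Col6a2 (-0.02), so that 1 of 9 was positive and 8 negative.

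**Figure D1:**
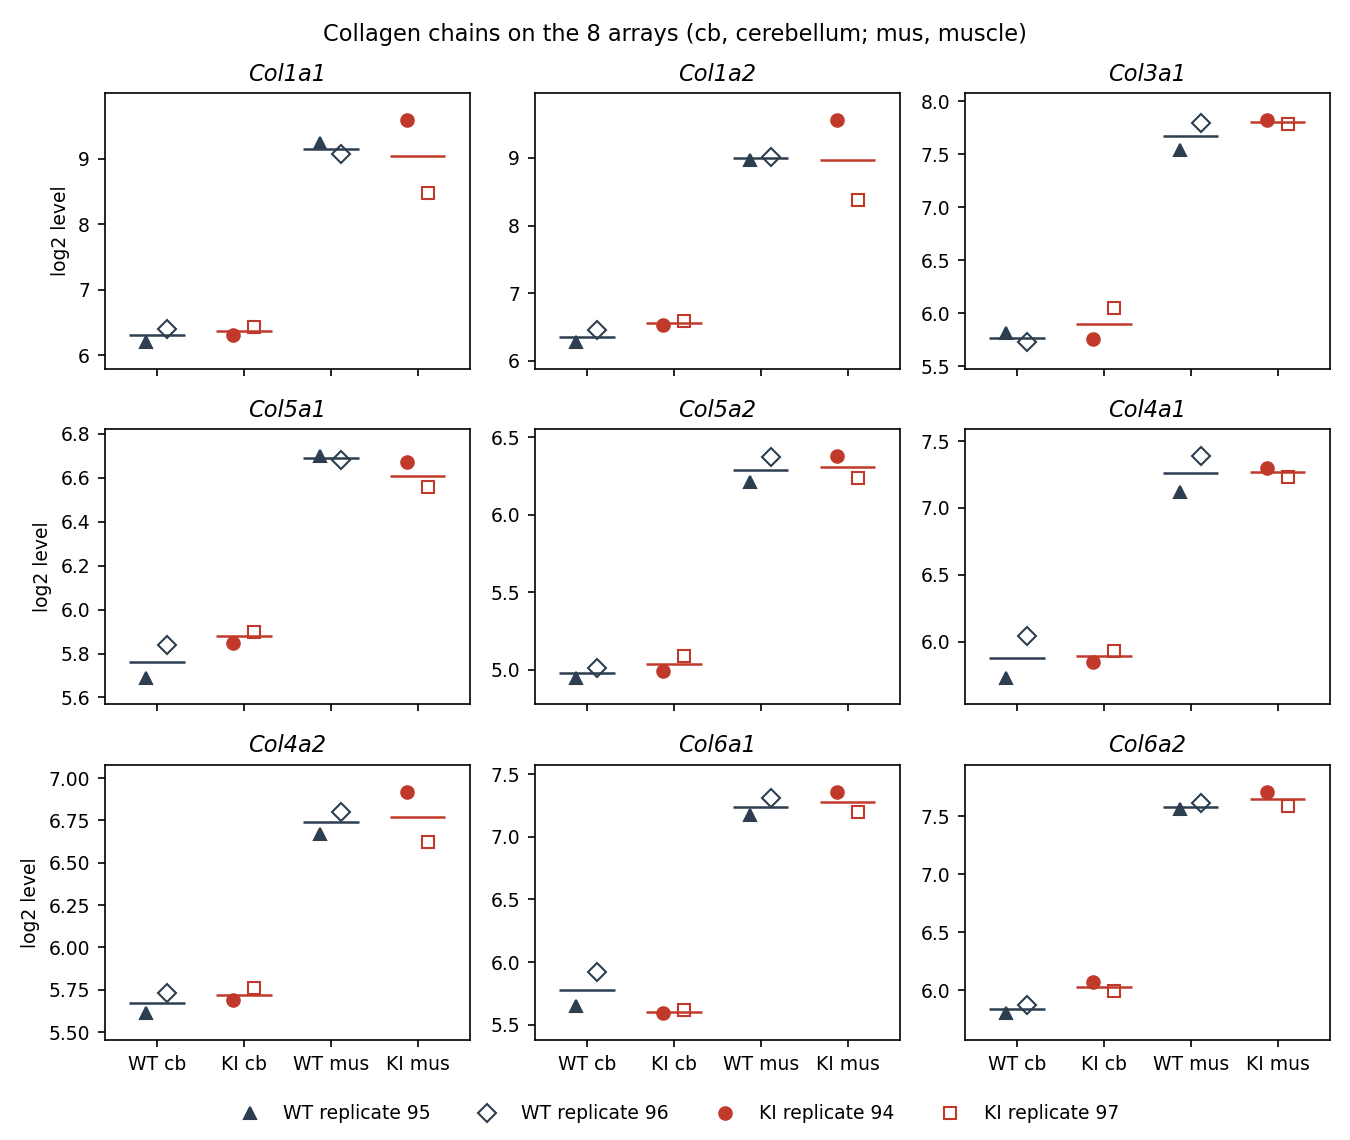
Log2 level of each of the 9 collagen genes on each array (points), by genotype and tissue, with the group mean as a line (2 arrays per group). KI muscle replicates 94 and 97 stand apart in Col1a1 (9.59 and 8.48) and Col1a2 (9.56 and 8.38), with the WT muscle arrays between them; in the other chains the muscle arrays lie close together, and all 9 are higher in muscle than in cerebellum.

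**Figure D2:**
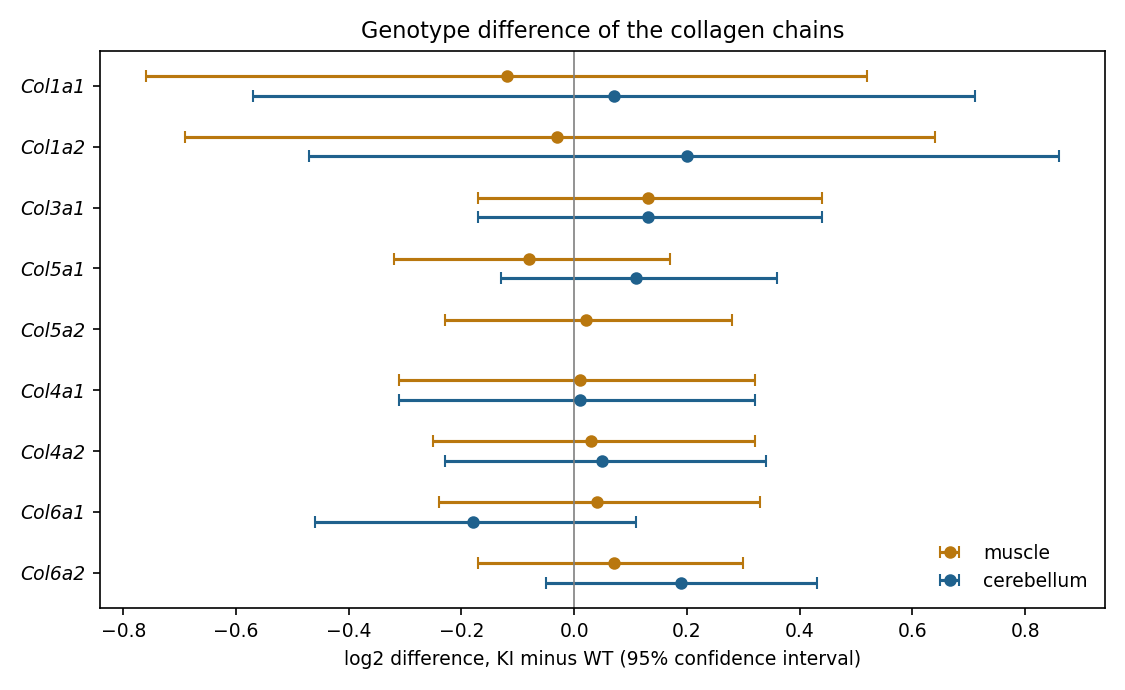
KI minus WT difference of each collagen gene on the log2 scale, with its 95% interval from limma, in muscle and in cerebellum. Every interval includes 0, and the type I chains have the widest. A gene's spread is shared by both tissues, so the gap between the KI muscle arrays also widens the type I intervals in the cerebellum. Col5a2 was not tested in the cerebellum.

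In KI muscle, replicate 94 exceeded replicate 97 by 1.11 in Col1a1 (2.16-fold) and by 1.18 in Col1a2 (2.27-fold). Of the 13933 genes tested in muscle, 47 had a larger gap between these arrays than Col1a1 and 41 a larger gap than Col1a2, counted in either direction. The gap was 0.30 in Col4a2 and between 0.04 and 0.16 in the other 6 chains. All 9 members were higher in replicate 94, against 51.1% of all genes. The WT muscle arrays differed by 0.18 in Col1a1 and by -0.05 in Col1a2 (replicate 95 minus 96). In the cerebellum the KI arrays of the same numbers did not repeat the gap: replicate 94 minus 97 was -0.13 in Col1a1 and -0.06 in Col1a2. Across the 8 arrays, each tissue centred on its mean, Col1a1 and Col1a2 correlated with r = 0.96. With the remaining members, r ran from 0.01 (Col3a1) to 0.81 (Col4a2) for Col1a1, and from 0.18 (Col3a1) to 0.90 (Col4a2) for Col1a2. The same arrays carry both genes of a pair, and the KI muscle arrays hold the widest deviations of the type I chains.

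Tendon markers moved with the type I chains in these arrays. Of 9 measured, 8 were higher in KI muscle replicate 94 than in 97, with a median gap of 1.34, and the mean of the list was 7.32 and 6.16 in KI replicates 94 and 97 against 6.92 and 6.96 in WT. Tnmd, a membrane protein of tendon cells, was at 7.07 and 5.49 in KI and at 6.37 and 6.36 in WT. Fmod, a proteoglycan of collagen fibrils, was at 9.56 and 7.41 in KI and at 9.04 and 9.17 in WT. As for Col1a1 and Col1a2, the WT arrays lay between the KI arrays. The difference of Fmod was -0.62 with all arrays (limma adjusted p = 0.549), -1.69 without KI replicate 94 and 0.46 without KI replicate 97. The last values each rest on a single KI muscle array. Scx, a transcription factor of tendon progenitors, was the exception, at 6.13 and 6.61 in KI and 6.31 and 6.19 in WT. With all arrays, 0 of 9 tendon markers were called between the genotypes (lowest adjusted p = 0.477) and 0 had an unadjusted p under 0.05. In the cerebellum the mean of the list was between 5.06 and 5.22. Comp, a matrix protein of tendon and cartilage, was at 6.60 and 5.53 in KI and 6.56 and 6.33 in WT. Its difference was -0.38 with all arrays (limma adjusted p = 0.477), -0.92 without KI replicate 94 and 0.16 without KI replicate 97. Fmod is also counted below among the partners of the fibrillar collagens, as are Lum and Mfap5 of the fibroblast markers. The part of tendon RNA in the type I levels was not tested.

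Of the 9 fibroblast markers, 8 were also higher in KI muscle replicate 94 than in 97, but the median gap was 0.13, against 1.34 for tendon markers. Of the 8 muscle fibre markers, 4 were higher in replicate 94. Relative to the WT mean, the 9 fibroblast markers stood at 0.27 and 0.09 in KI replicates 94 and 97, while the type I chains stood at 0.50 and -0.64 and the other 7 members at 0.10 and -0.03. None of the 9 fibroblast markers was called, and 4 had an unadjusted p under 0.05, against 20.3% of all genes tested. Dpt, a matrix protein of fibroblasts, was at 0.61 ± 0.18 (limma adjusted p = 0.101) and Cd34 at 0.31 ± 0.10 (adjusted p = 0.142). The 8 muscle fibre markers were all lower in both KI arrays than in both WT arrays (19.9% of all genes tested), with a mean of -0.50 and -0.44 relative to WT. Actn3 fell by 0.60 (adjusted p = 0.0372) and Pvalb by 0.59 (adjusted p = 0.0439), and each lost its call in 10 of the 15 alternatives. Macrophage markers had positive differences in 9 of 9 tested, with 0 called, 4 at an unadjusted p under 0.05 (20.3% of all genes) and a median of 0.31. Mrc1 was at 0.56 (limma adjusted p = 0.0569). Endothelial markers (0 of 10 called, 0 at an unadjusted p under 0.05, median -0.04) and mural markers (0 of 8 called, 0 at an unadjusted p under 0.05, median 0.05) lay near the median of all genes. Against 0.890% of all genes tested, 2 of the 7 genes tested from the adipocyte list were called lower in KI. Of these, Retn, a hormone of fat cells, fell by 0.60 (adjusted p = 0.0275), a call lost in 8 of the 15 alternatives (adjusted p up to 0.146). Car3, a carbonic anhydrase that muscle fibres also make in quantity, fell by 1.00 (adjusted p = 0.019), a call lost in 5 of the 15, among them those that left out any muscle array (adjusted p up to 0.0856). The part of these cell types in the collagen levels was not tested.

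**Figure D3:**
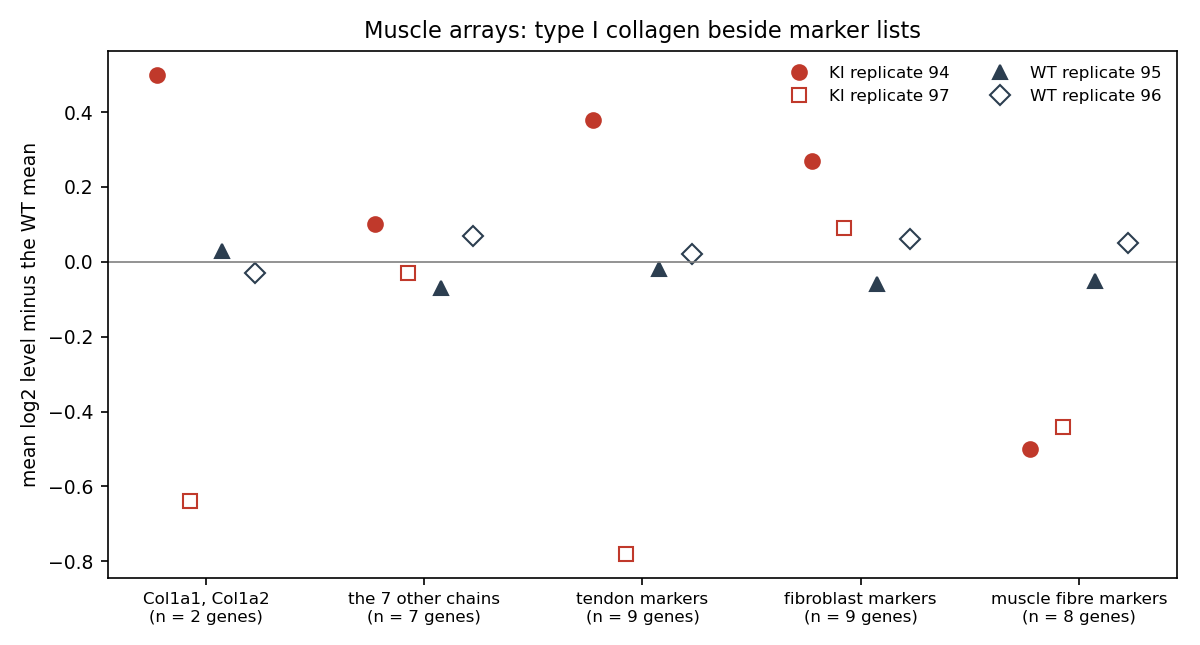
Mean log2 level on each muscle array minus the mean of the WT muscle arrays, for the type I chains, the other 7 members and the marker lists of tendon, fibroblasts and muscle fibres. KI replicates 94 and 97 lie on opposite sides of WT for the type I chains (0.50 and -0.64) and for tendon markers (0.38 and -0.78), and on the same side for muscle fibre markers (-0.50 and -0.44).

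In the cerebellum, where collagen is made mainly by meninges and vessels, Col1a1 was at 6.30 and 6.43 in KI and at 6.20 and 6.40 in WT, which overlap, with a difference of 0.07 ± 0.28. Col1a2 was at 6.53 and 6.59 in KI and at 6.28 and 6.45 in WT. Both KI arrays exceeded both WT arrays, and the difference was 0.20 ± 0.29 (95% interval -0.47 to 0.86). The same order held for Col5a1, at 5.85 and 5.90 against 5.69 and 5.84 (0.11 ± 0.11), and for Col6a2, at 6.07 and 5.99 against 5.80 and 5.87 (0.19 ± 0.11). Col6a1 had the reverse order, at 5.59 and 5.62 in KI and 5.65 and 5.92 in WT (-0.18 ± 0.13). These 4 of 8, 3 higher and 1 lower, compare with 35.3% of all genes tested in the cerebellum without overlap (15.3% higher and 20.0% lower). The fit shares a single spread per gene over the 4 groups, so the errors of Col1a1 and Col1a2 here include the gap between the KI muscle arrays. The SDs of Col1a2 in the cerebellum were 0.04 in KI and 0.12 in WT, against 0.84 in KI muscle.

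Col3a1 (0.13 ± 0.13), Col4a1 (0.01 ± 0.14) and Col4a2 (0.05 ± 0.13) overlapped between the genotypes in the cerebellum. Col5a2, at 4.99 and 5.09 in KI and 4.95 and 5.01 in WT, did not pass the filter on dim probe sets there. Of the 8 chains tested, 7 differences were positive, with a median of 0.09 against -0.01 over all genes, 0 had an unadjusted p under 0.05 (5.33% of all genes), and limma adjusted p values were 0.998 or above. Meningeal markers had a mean of 6.37 to 6.41 in the KI arrays and of 6.05 to 6.37 in the WT arrays, and their part in the collagen levels was not tested.

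The KI effect in muscle minus that in the cerebellum was called for 0 of the 9 members, with 0 at an unadjusted p under 0.05, against 0.143% of 14708 genes called and 13.8% at that p. It was -0.18 ± 0.40 for Col1a1 (limma adjusted p = 0.864) and -0.22 ± 0.42 for Col1a2 (adjusted p = 0.837). The lowest adjusted p was that of Col5a1 (-0.19 ± 0.15; adjusted p = 0.587), and the value of opposite sign that was largest was that of Col6a1 (0.22 ± 0.18; adjusted p = 0.590).

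Between the tissues the collagens differed far beyond the spread of the arrays. Of the 9 chains, 8 were called higher in muscle at an adjusted p under 0.05 and at least 2-fold, where 11.0% of 14708 genes were called higher in muscle and 26.0% in either direction. Col1a1 was 6.78-fold higher (log2 difference 2.76 ± 0.20; limma adjusted p = 9.87e-07) and Col1a2 5.75-fold higher (2.52 ± 0.21; adjusted p = 2.49e-06). Col3a1 was 3.72-fold higher and Col5a2 2.45-fold higher. Col5a1 was 1.78-fold higher (0.83 ± 0.08; adjusted p = 5.52e-06), which is under the 2-fold limit.

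Type VI collagen was 2.96-fold higher in muscle by Col6a1 and 3.21-fold higher by Col6a2 (1.68 ± 0.07; limma adjusted p = 2.73e-08). The basement membrane chains differed less, by 2.59-fold in Col4a1 and 2.08-fold in Col4a2. Without KI muscle replicate 94 the Col4a2 difference was 0.98, just under 2-fold, and 7 of 9 members were called. The median difference of the 9 members was 1.57, against 0.035 over all genes. The labelled tissues were borne out by their markers: 8 of 8 muscle fibre markers were higher in muscle (median 6.36) and 10 of 10 cerebellar markers were lower (median -4.9).

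The other collagen chains gave no call between the genotypes. All 35 listed were tested in muscle, where 29 differences were negative and 6 positive, with a median of -0.14 against 0.03 over all genes; 15 chains had both KI arrays below both WT arrays and 4 above, where the shares of all genes tested were 19.9% and 30.3%. The mean of the list was 6.05 and 5.93 in KI replicates 94 and 97, and 6.21 and 6.06 in WT replicates 95 and 96. The WT arrays thus differed as well, by a median of 0.16 (replicate 95 minus 96), beside the genotype median of -0.14. Only Col2a1, the fibrillar collagen of cartilage, had an unadjusted p under 0.05 (-0.34 ± 0.14, limma adjusted p = 0.234). Col28a1 (-0.26 ± 0.13), Col11a1 (-0.37 ± 0.18) and Col22a1, a chain of the muscle-tendon junction (-0.28 ± 0.14), followed, with adjusted p of 0.285 to 0.289. Col12a1, a fibril-associated collagen of tendon, was at 8.38 and 6.22 in KI and 7.62 and 8.23 in WT, so that the KI arrays enclosed the WT arrays. Its difference was -0.62 with all arrays (limma adjusted p = 0.56). With a single KI muscle array left, it was -1.70 without KI replicate 94 and 0.46 without KI replicate 97. Col10a1 was at -0.45 with all arrays (limma adjusted p = 0.361), at -0.96 without WT replicate 96 and at 0.05 without WT replicate 95. Col10a1 was near the floor, at 5.02 and 4.84 in KI muscle and 5.89 and 4.88 in WT muscle. So was Col28a1, at 4.97 and 5.03 in KI muscle and 5.34 and 5.19 in WT muscle.

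Col6a3, which assembles with Col6a1 and Col6a2, was at 7.46 and 7.38 in KI muscle and at 7.19 and 7.28 in WT muscle. Both KI arrays were above both WT arrays, but the difference of 0.18 ± 0.12 was not called (limma adjusted p = 0.423). In the cerebellum 0 of 31 other chains were called and 0 had an unadjusted p under 0.05; the median was 0.08, with Col8a1 at 0.36 ± 0.16 (adjusted p = 0.934) and Col6a3 at 0.24 ± 0.12 (adjusted p = 0.953). Between the tissues 4 of the 35 were called higher in muscle, near the 11.0% of all genes called higher there. These were Col12a1 (2.31), Col6a3 (1.97), Col14a1 (1.49) and Col15a1 (1.49).

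Enzymes and chaperones that modify, fold and cross-link collagen included 1 call in muscle. P3h2, a prolyl 3-hydroxylase with type IV collagen among its substrates, was at 6.98 and 7.27 in KI muscle and at 6.31 and 6.10 in WT muscle. Both KI arrays were above both WT arrays, and the level rose 1.89-fold (0.92 ± 0.15; limma adjusted p = 0.0178). The call was lost without WT replicate 95 (adjusted p = 0.0603), WT replicate 96 (0.0817) or KI replicate 97 (0.091), with the muscle arrays fitted alone (0.0532) and with all probe sets tested (0.0739), while the difference stayed between 0.77 and 1.06. The 1 call of 27 genes tested compares with 3.55% of all genes tested. An unadjusted p under 0.05 was found for 4 of the 27, against 20.3% of all genes tested, and the median was 0.07.

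Serpinh1, the collagen-binding chaperone HSP47, was at -0.43 ± 0.17 (limma adjusted p = 0.195). Colgalt2, a collagen galactosyltransferase, was at 0.35 ± 0.14 (adjusted p = 0.196), and the prolyl isomerase Ppib at 0.28 ± 0.12 (adjusted p = 0.218). In the cerebellum 0 of 26 were called and 1 had an unadjusted p under 0.05; Tll1 was at -0.33 ± 0.14 (adjusted p = 0.914) and Pcolce2 at 0.35 ± 0.16 (adjusted p = 0.938).

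Of 20 genes of TGF-beta signalling and its fibrosis targets tested in muscle, 1 was called, against 3.55% of all genes tested. An unadjusted p under 0.05 was found for 3 of the 20, against 20.3% of all genes tested. Tgfb3, a TGF-beta ligand, was at 8.93 and 8.70 in KI and at 7.97 and 7.84 in WT. It rose 1.89-fold (0.92 ± 0.12; limma adjusted p = 0.00611), and it was called in each of the 15 alternatives, with adjusted p from 0.00202 to 0.0465. Tgfb1 was at -0.20 (adjusted p = 0.55) and the TGF-beta target Ccn2 at -0.17 (adjusted p = 0.817). The median of the list was 0.09.

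Smad2, a signal transducer of the receptor, was at 0.43 ± 0.10 (limma adjusted p = 0.0575) and was called in 3 of the 15 alternatives. The inhibitor Smad7 was at 0.30 ± 0.10 (adjusted p = 0.146) and Ltbp3, which binds latent TGF-beta, at 0.25 ± 0.11 (adjusted p = 0.251). In the cerebellum Tgfb3 was at 0.15, and its effect in muscle minus that in the cerebellum was 0.77 (adjusted p = 0.106). There 0 of 19 were called and 1 had an unadjusted p under 0.05; Tgfb2 was at 0.33 ± 0.12 (adjusted p = 0.824) and Tgfbr2 at 0.30 ± 0.14 (adjusted p = 0.941).

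Partners of the basement membrane collagens gave 0 calls of 16 tested in muscle, with a median of 0.11. An unadjusted p under 0.05 was found for 4 of them, against 20.3% of all genes tested. The laminin chains Lamc1 (0.35 ± 0.11; limma adjusted p = 0.11), Lama2 (0.30 ± 0.11; 0.181) and Lamc3 (-0.31 ± 0.12; 0.183) and the proteoglycan Agrn (0.27 ± 0.11; 0.222) had the lowest p. In the cerebellum 0 of 14 were called and 1 had an unadjusted p under 0.05; Nid2, which links laminin to type IV collagen, was at 0.25 ± 0.11 (adjusted p = 0.922) and Lamc3 at 0.23 ± 0.12 (adjusted p = 0.99).

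Partners of the fibrillar collagens gave 0 calls of 22 in muscle, with 3 at an unadjusted p under 0.05 (20.3% of all genes) and a median of 0.02. They included the proteoglycans Vcan (0.32 ± 0.11; limma adjusted p = 0.157) and Lum (0.46 ± 0.18; 0.199), the microfibril protein Mfap5 (0.34 ± 0.14; 0.225) and elastin, Eln (-0.26 ± 0.14; 0.336). As with the members, 21 of the 22 were higher in KI replicate 94 than in 97, with a median gap of 0.43. In the cerebellum 0 of 18 were called and 0 had an unadjusted p under 0.05, with Bgn at 0.43 ± 0.21 (adjusted p = 0.975) and Mfap4 at -0.23 ± 0.15 (adjusted p = 0.998).

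Collagen receptors gave 0 calls of 11 in muscle, with 2 at an unadjusted p under 0.05 (20.3% of all genes). The tyrosine kinases Ddr1 (0.30 ± 0.11; limma adjusted p = 0.19) and Ddr2 (0.27 ± 0.10; 0.196) led, followed by the integrin chain Itga11 (-0.25 ± 0.16; 0.411) and the type VI collagen receptor Cspg4 (-0.11 ± 0.12; 0.641), and the median was 0.07. In the cerebellum 0 of 10 were called and 1 had an unadjusted p under 0.05, although all 10 differences were positive (median 0.14), with Mrc2, which takes up collagen fragments, at 0.49 ± 0.21 (adjusted p = 0.915).

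Matrix proteases and their inhibitors gave 0 calls of 15 in muscle, with 3 at an unadjusted p under 0.05 (20.3% of all genes) and a median of 0.05. Timp4 was at -0.53 ± 0.13 (limma adjusted p = 0.0641, called in 2 of the 15 alternatives), the lysosomal protease Ctsl at 0.33 ± 0.12 (adjusted p = 0.171), Timp2 at 0.48 ± 0.21 (adjusted p = 0.237) and Mmp23 at -0.18 ± 0.12 (adjusted p = 0.436). Mmp13, a collagenase that cleaves fibrillar collagen, was at 8.20 and 5.01 in KI muscle and at 6.89 and 8.24 in WT muscle. The KI arrays of Mmp13 differed in the direction of the type I chains. The same direction held for 14 of the 15 genes tested, Mmp13 included, with a median gap of 0.44, against 51.1% of all genes. The difference of Mmp13 was -0.96 with all arrays (limma adjusted p = 0.553). With a single KI muscle array left, it was -2.56 without KI replicate 94 and 0.64 without KI replicate 97. In the cerebellum 0 of 13 were called and 1 had an unadjusted p under 0.05; Timp2 was at 0.64 ± 0.21 (adjusted p = 0.702) and Timp4 at -0.26 ± 0.13 (adjusted p = 0.99).

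**Figure D4:**
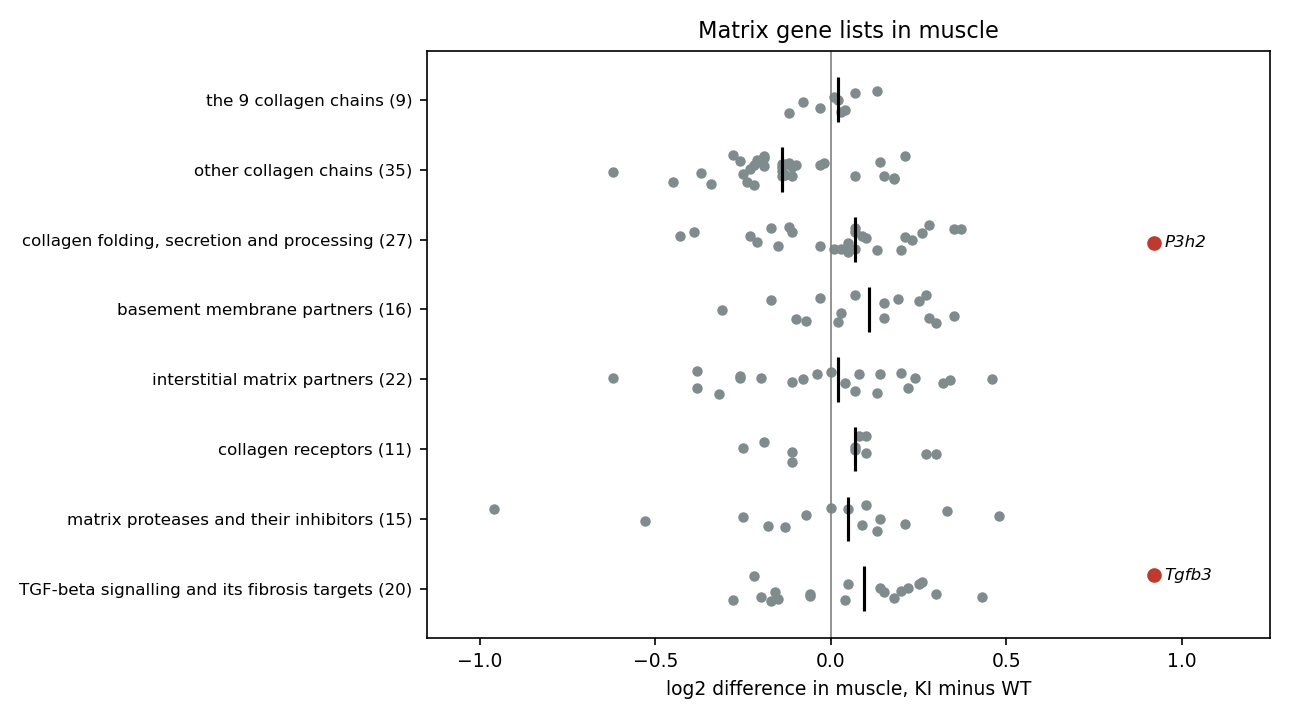
KI minus WT log2 difference in muscle of every tested gene (points) of the 9 members and of the 7 lists of related genes, with list medians as lines and genes called by limma marked. The members lie between -0.12 and 0.13; the marked genes are P3h2 and Tgfb3.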

How the data were processed

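The authors deposited log2 expression values of 35556 probe sets on 8 arrays, for which the submitters' processing notes name GCOS and RMA. The sources used here do not give versions, build, filters or the set of arrays normalised with each other. RMA gives arrays a common distribution, so a shift of all genes would not be visible. From the platform annotation, 21789 probe sets carried a single gene symbol, 1621 several and 12146 none; the brightest by mean over the 8 arrays stood for each gene. Array medians were 5.40 to 5.51.

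limma 3.58.1 (R 4.3.3) fitted 4 group means to the 14708 genes kept in either tissue. Each gene had a single moderated variance, shared by the 4 groups. To be kept in a tissue, a gene had to reach the array's 40th percentile on 2 or more of that tissue's 4 arrays. Adjusted p values are Benjamini-Hochberg over the genes tested in each comparison. No source says that arrays are separate animals, so p-values measure the spread between arrays, which may be technical; their number limits the precision.

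Members and lists were chosen with earlier results of these data known. The named genes were the members, up to 4 genes of each of 7 related lists by muscle p and up to 2 by cerebellum p, up to 2 of a marker list by muscle p, and 6 genes most like the members. Others were named after their values were seen: Tnmd, Scx, Col12a1, Col10a1, Col6a3, Col14a1, Col15a1, Mmp13, Tgfb1 and Ccn2. In each comparison 15 alternatives were run: no filter, all probe sets, another normalisation, median centring, other variances, another threshold, the tissue alone or a replicate block, and leaving out each array. The fits were tested on simulated data.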

Additional observations from a re-analysis of the deposited data

Results flagged for a closer look

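In 5 of 73 genes named by the rule (6.85%), the KI arrays were both higher than the WT arrays in muscle and both lower in the cerebellum, or the reverse. The same held for 1410 of 14708 genes kept in either tissue (9.59%) and for 10 of 252 genes of all lists (3.97%). The KI effect in muscle minus that in cerebellum was -0.19 for Col5a1 (limma adjusted p = 0.587), -0.55 for Lamc3 (adjusted p = 0.227), 0.59 for Mfap5 (adjusted p = 0.267), -0.35 for Cspg4 (adjusted p = 0.392) and 0.47 for Smad2 (adjusted p = 0.242). None of these differences was called. Mfap5 was below the filter on dim probe sets in the cerebellum, where its level of 3.81 to 4.31 was not tested by itself.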

How the results depend on the processing

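No member was called between the genotypes, or for the difference between tissues, under any alternative run; 8 were called higher in muscle (7 to 8 with an array left out). Over all genes, the count called in muscle was 495, against 246 without the filter, 69 with all probe sets, 995 at an adjusted p under 0.1, 105 with the muscle arrays alone and 105 to 385 with an array left out. In the cerebellum it was 28, against 18 without the filter, 6 with all probe sets and 4 to 29 with an array left out. For the difference it was 21, against 3 without the filter, 0 with all probe sets, 63 with trended and robust variances, 108 at an adjusted p under 0.1 and 0 to 23 with an array left out. The cause of these changes was not tested. With an array left out, the lone array of its group is assumed to vary like the others. KI and WT share no replicate numbers, so no paired analysis of genotype was possible. The same numbers recur between tissues, but deviations of same-numbered arrays correlated at only 0.057 in KI and -0.097 in WT over 14708 genes, and the numbers were not taken as pairs. With a replicate block 14 genes were called for the difference (0 members) and 3823 between the tissues (8 members). Each member has 1 probe set, so no other probe set could be tried.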

Other observations

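Of the bone and cartilage markers, a list added after the values were seen, 9 were measured and 5 tested in muscle, and 4 of these 5 were higher in KI replicate 94 than in 97. Ibsp, the bone sialoprotein of mineralising matrix, was at 8.59 and 3.80 in KI replicates 94 and 97 and at 6.61 and 8.30 in WT muscle, and its gap of 4.79 between the KI arrays was the largest of 13933 genes. Its level in the cerebellum was 3.84 to 4.11, near that of KI muscle replicate 97. Acp5, a phosphatase of osteoclasts and macrophages, was at 7.39 and 5.67 in KI and at 6.61 and 6.83 in WT. The mean of the list was 5.98 and 5.04 in KI replicates 94 and 97 and 5.67 and 5.80 in WT. Without Ibsp it was 5.65 and 5.20 in KI and 5.55 and 5.49 in WT, so that Ibsp carried much of the gap. The KI minus WT difference of Ibsp in muscle was -1.26 with all arrays (limma adjusted p = 0.595). With a single KI muscle array left, it was -3.66 without KI replicate 94 and 1.13 without KI replicate 97. The part of bone or tendon tissue in the type I levels was not tested.

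Among 2784 genes that varied by at least 0.5 over the muscle arrays, those most like the mean of the 9 members over the 8 arrays, each tissue centred on its mean, were Reck (r = 0.981), Gm10432 (0.981), Acp5 (0.957), Tigit (0.956), Mgp (0.952) and Igfbp6 (0.949). Reck, a membrane-anchored inhibitor of matrix metalloproteinases, was at 6.88 and 6.13 in KI muscle and at 6.35 and 6.49 in WT muscle. These genes were picked for their likeness, and the points share arrays. The mean of the 9 was not scaled by gene, so the gap of the type I chains weighs most in it. In KI muscle replicates 94 and 97 those chains stood at 0.50 and -0.64 relative to WT, and the other 7 members at 0.10 and -0.03.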
